A study of Mus musculus with 6 samples.

Results

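The enzymes of glycolysis, fructolysis and gluconeogenesis were examined in the mouse jejunum as a set of 36 named genes. A gene counted as measured when the annotation of the array gave a row that symbol and no other, and the row with the highest mean over the 6 arrays stood for it. By this rule 31 of the 36 were measured, among 19938 genes in all. Gpi1, Pfkfb1, Gapdh, Eno1 and Galk1 had no such row and were not analysed here; the 25 rows that carry the symbol Gapdh carry those of other genes as well.

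The samples are scrapings of jejunal mucosa from C57/BL mice of 8 to 10 weeks on chow. One group, ISR2, is a transgenic line with overactive SREBP2 in the intestine, and the other is its wild type littermates, with 3 arrays each. SREBP2 is the transcription factor that turns on cholesterol synthesis and uptake. The sources used here do not give the construct, its promoter or the number of founder lines, and the labels do not say whether an array holds 1 animal or a pool. The p-values therefore measure the spread between these samples, which may be technical. Values are log2 expression values made with RMA, on which a difference of 1 is a doubling.

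Glycolysis splits glucose into pyruvate through a chain of cytosolic enzymes, several of which exist as isozymes made by separate genes. Gluconeogenesis runs the same chain backwards and bypasses its irreversible steps with enzymes of its own: pyruvate carboxylase, phosphoenolpyruvate carboxykinase, fructose bisphosphatase and glucose 6-phosphatase. Enterocytes of the jejunum absorb glucose, galactose and fructose from the lumen. They phosphorylate fructose with ketohexokinase and so feed it into the chain at the level of trioses.

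Defining markers of the tissue were high on every array. Fabp2, a fatty acid binding protein of enterocytes, lay between 13.68 and 14.10, and Vil1, the villin of the brush border, between 11.69 and 12.27. Vil1 was still lower on every ISR2 array than on any wild type array, with a log2 difference of -0.34 ± 0.13 (SE). Array medians over all rows lay between 6.04 and 6.19. The replicate 2 arrays stood apart in both groups by smooth muscle: the mean of 8 smooth muscle and stroma markers was 10.25 in wild type replicate 2 and 9.54 in ISR2 replicate 2, and 7.33 to 7.97 on the other arrays. With all arrays 602 genes of the whole table were called, against 436 without both replicate 2 arrays and 775 when wild type replicate 3 and ISR2 replicate 2 were dropped instead. The counts of enzymes and neighbours that passed are given under both settings as well.

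Among the 31 measured enzymes, 6 passed an adjusted p of 0.05 in limma, which is 19.4% against 3.02% of all genes tested. Aldoc and Pfkm rose, 2 of 31 or 6.45%, where 1.79% of all genes rose. Pck1, Pfkfb3, G6pc and Pgm2 fell, 4 of 31 or 12.9%, where 1.23% of all genes fell. The count of all genes that fell was 246 and varied with the arrays used: dropping a single wild type array (replicate 1, 2 or 3) gave 85, 128 or 170, and dropping a single ISR2 array gave 99, 236 or 135. It was 159 without both replicate 2 arrays, and 106 with all rows tested. The enzymes were chosen with results of these data known, so these shares are descriptions. Leaving out both replicate 2 arrays gave the same 6 enzymes. Dropping the other set, wild type replicate 3 with ISR2 replicate 2, gave these 6 together with Aldoa and Pcx. For Aldoa and Pcx that set holds the arrays nearest to the other group, so its removal had to widen their gap. At an adjusted p of 0.10, 10 of the 31 passed, beside 4.20% of all genes.

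Most of the set stayed within a narrow band. The median log2 change was -0.10, with quartiles of -0.20 and 0.18, beside a median of -0.06 and quartiles of -0.19 and 0.07 for all genes. The sign of that median was not stable, since it was 0.05 with that other set dropped. Of the 31 enzymes, 22 differed by less than 0.5. In 12 enzymes, or 38.7%, all 3 arrays of a group lay above all 3 of the other, which held for 19.8% of all genes; ISR2 was the higher group in 5 of them and the lower in 7. Apart from the 6 that passed, these were Aldoa, Pfkfb4 and Pklr on the higher side and Pcx, Ldha and Galm on the lower side.

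**Figure D1:**
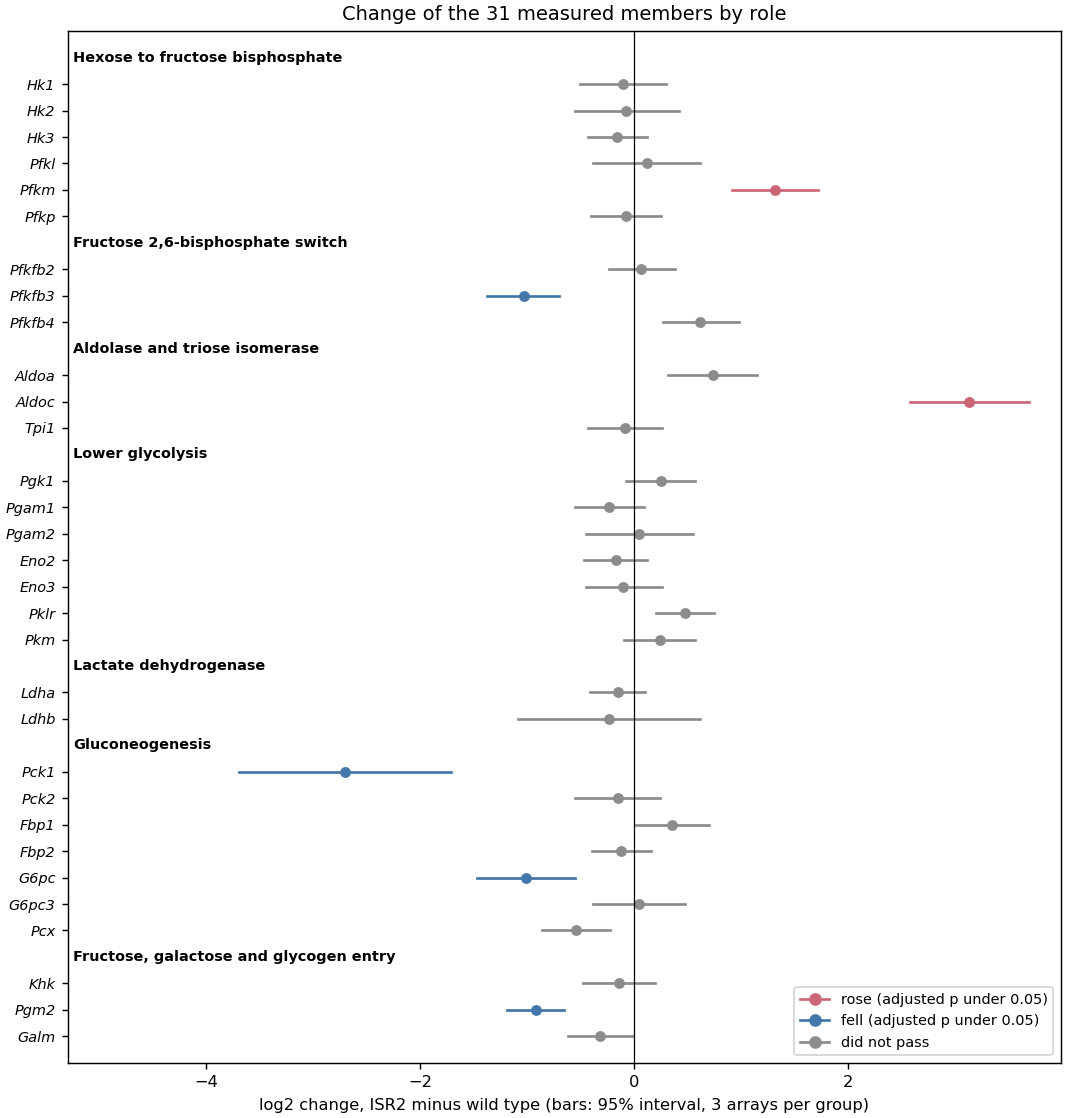
Log2 change of each of the 31 measured enzymes, ISR2 minus wild type, grouped by role, with points for the estimate and bars for its 95% interval (3 arrays per group). Aldoc at 3.13 and Pck1 at -2.70 lie farthest from 0, and 22 of the 31 points lie within 0.5 of it.

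The aldolase step held the highest rise. Aldolase cuts fructose bisphosphate into a pair of trioses; Aldoc encodes the isozyme best known from brain and Aldoa the one best known from muscle. Aldoc stood at 8.08, 7.41 and 6.97 on the wild type arrays and at 10.57, 10.71 and 10.57 on the ISR2 arrays. The ISR2 arrays were nearly level with each other, the wild type arrays were spread out, and the groups did not overlap. The change was 3.13 ± 0.25 (SE), or 8.76-fold (adjusted p = 0.000136), and stayed between 2.87 and 3.43 without any 1 array.

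Aldoa stood at 10.71, 11.00 and 11.31 in wild type and at 11.67, 11.56 and 12.01 in ISR2. Its groups did not overlap, but the change of 0.74 ± 0.18 (SE; 95% interval 0.32 to 1.15) did not pass (adjusted p = 0.0797). It did pass without wild type replicate 3, and with array weights (adjusted p = 0.0213). Tpi1, the isomerase that interconverts the trioses, differed by -0.08 ± 0.15 (SE; 95% interval -0.43 to 0.26).

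Promoters from RefSeq, 250 bases before to 50 after each annotated start on GRCm38.p6, were searched for short strings, and those of Aldoc and Pkm are shown because they hold the string named for the sterol factors. They matched 30 of the 31 enzymes by symbol, in 44 windows; Galm had no entry. The string TCACNCCAC, the core of a sterol regulatory element, was searched on both strands and found in 408 of the 32851 windows of all genes, or 1.24%. Among the enzymes it stood in a window of Aldoc, starting 80 bases before the start site, and in a window of Pkm, starting 190 bases before it. The windows lie at chr11:78322823-78323122 and chr9:59656977-59657276, both on the + strand, and the match is in capitals.
Aldoc: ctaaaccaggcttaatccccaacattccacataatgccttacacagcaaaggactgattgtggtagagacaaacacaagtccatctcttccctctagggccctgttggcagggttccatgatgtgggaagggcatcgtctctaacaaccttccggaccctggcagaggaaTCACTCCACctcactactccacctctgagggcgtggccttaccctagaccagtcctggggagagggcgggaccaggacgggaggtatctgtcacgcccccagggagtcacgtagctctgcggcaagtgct
Pkm: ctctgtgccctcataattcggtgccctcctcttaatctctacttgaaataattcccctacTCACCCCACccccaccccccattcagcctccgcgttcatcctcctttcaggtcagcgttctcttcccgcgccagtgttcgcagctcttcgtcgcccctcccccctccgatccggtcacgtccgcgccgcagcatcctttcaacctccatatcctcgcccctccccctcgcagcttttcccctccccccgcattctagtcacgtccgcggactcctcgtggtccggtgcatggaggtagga
Pkm, which carries the same string, differed by 0.24 ± 0.15 (SE) and did not pass, so the string stood in 1 called and 1 uncalled enzyme.

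The E-box CACGTG stood in 8 of the 44 windows of the enzymes, beside 7.15% of all windows. These windows belong to Pfkm, Pfkfb3, Pfkfb2, Khk, Ldha, Fbp2, G6pc3 and Pcx. Only Pfkm and Pfkfb3 of these passed, in opposite directions. The GC box GGGCGG stood in 21 of the 44 windows, from 19 enzymes, beside 35.7% of all windows. CCAAT stood in 18 of the 44 windows, from 16 enzymes, beside 37.4% of all windows. Of the 19 and 16 enzymes, 4 and 2 passed. No matches of different strings overlapped in the windows of these enzymes. A match is a description of the letters and shows no binding.

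**Figure D2:**
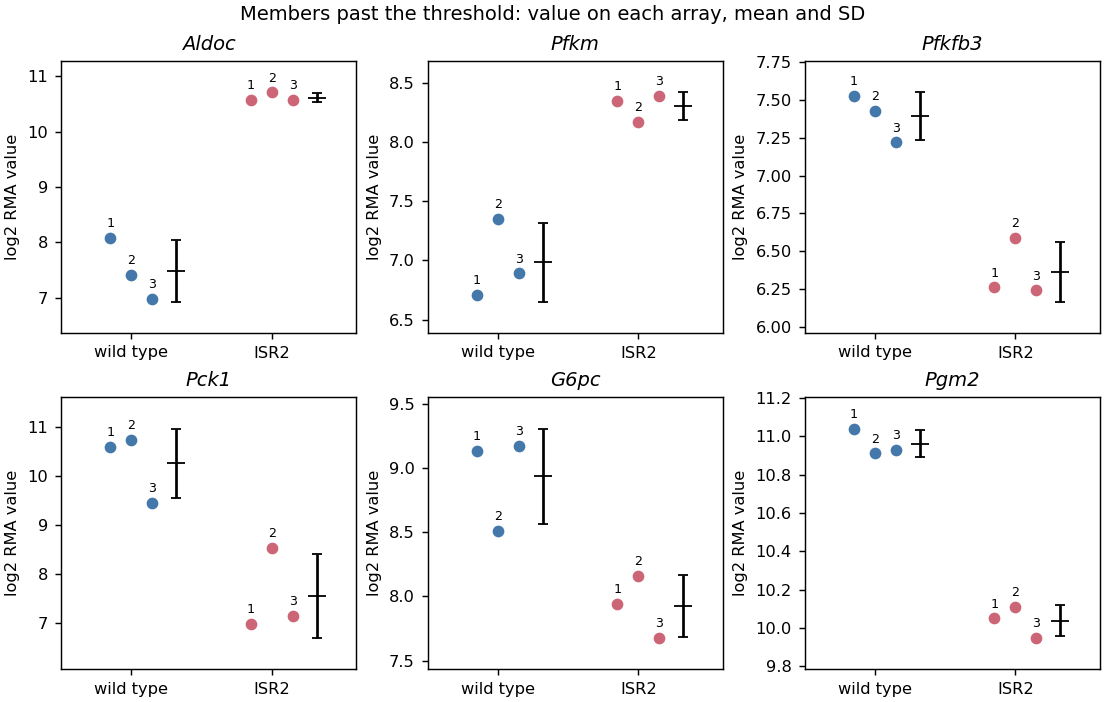
Log2 RMA value of the 6 enzymes that passed, by array (numbers mark the replicate), with the group mean and SD beside the points; each panel has its own scale. In every panel the wild type and ISR2 points do not overlap, and ISR2 replicate 2 is the highest ISR2 point in the 4 enzymes that fell.

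The steps from hexose to fructose bisphosphate held 1 rise among 6 measured enzymes. Pfkm encodes the muscle-type subunit of phosphofructokinase, the enzyme that commits fructose phosphate to glycolysis. It stood at 6.71, 7.35 and 6.89 in wild type and at 8.35, 8.17 and 8.39 in ISR2. The groups were well apart, and wild type replicate 2 was the highest of its group. The change was 1.32 ± 0.18 (SE), or 2.5-fold (adjusted p = 0.00345), and it was 1.57 without both replicate 2 arrays. These were the nearest arrays of the groups, so dropping them had to widen the gap.

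The other subunits did not pass. Pfkl, the liver-type subunit, differed by 0.12 ± 0.22 (SE; 95% interval -0.38 to 0.62) and Pfkp, the platelet-type subunit, by -0.07 ± 0.14 (SE; 95% interval -0.40 to 0.25). Markers of skeletal muscle, the tissue for which Pfkm is named, were measured beside it. None of the 5 passed. The myosin genes Myh1 and Myh4 lay between 4.25 and 5.31 on the 6 arrays, below the array medians. Ckm, the muscle creatine kinase, lay between 6.62 and 8.08 and was highest in both replicate 2 arrays, and Acta1, an actin gene, lay between 7.38 and 8.39. The groups did not overlap for Acta1, which differed by 0.59 ± 0.18 (SE; adjusted p = 0.151), and for Mb (adjusted p = 0.512).

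The hexokinases trap glucose in the cell as glucose phosphate. Hk1 differed by -0.10 ± 0.18 (SE), Hk2 by -0.07 ± 0.21 and Hk3 by -0.16 ± 0.12, and in each the groups overlapped. Hk1, with values of 11.83 to 12.45, was nearly as high in ISR2 replicate 1 as in wild type replicate 2. Hk2 was low in ISR2 replicate 2 alone, at 6.53 beside 7.06 to 7.37 on the other 5 arrays. The 5 enzymes of these steps that did not pass had 95% intervals lying within -0.55 and 0.62.

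Of the 3 measured Pfkfb genes, 1 fell and 2 did not pass. They encode bifunctional enzymes that make and break fructose 2,6-bisphosphate, an activator of phosphofructokinase; the Pfkfb3 isozyme is known for a strong bias towards making it. Pfkfb3 stood at 7.53, 7.43 and 7.22 in wild type and at 6.26, 6.59 and 6.24 in ISR2. All ISR2 arrays were below all wild type arrays, with a change of -1.03 ± 0.15 (SE), 2.04-fold lower (adjusted p = 0.00527). The call held without any 1 array, with adjusted p up to 0.0398.

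Pfkfb4 was on the other side. It stood at 9.09, 8.58 and 8.70 in wild type and at 9.44, 9.50 and 9.30 in ISR2, without overlap. The difference of 0.62 ± 0.16 (SE; 95% interval 0.27 to 0.98) did not pass (adjusted p = 0.085); it passed without wild type replicate 1 and with array weights (adjusted p = 0.0189). Pfkfb2 differed by 0.07 ± 0.14 (SE) with overlapping groups.

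Lower glycolysis, from triose phosphate to pyruvate, held no call among 7 measured enzymes in limma; at an unadjusted p under 0.05 it held 1, Pklr. Pklr encodes the liver and red cell pyruvate kinase, the last step of the chain, and stood at 10.79, 10.67 and 10.83 in wild type and at 11.33, 11.20 and 11.20 in ISR2. The groups did not overlap and were tight, and the difference was 0.48 ± 0.12 (SE; adjusted p = 0.0839); it passed with array weights (0.54 ± 0.10; adjusted p = 0.0121). Pkm, the pyruvate kinase of most other tissues, differed by 0.24 ± 0.15 (SE; 95% interval -0.09 to 0.57).

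The remaining enzymes of that stretch were close to 0. The phosphoglycerate kinase Pgk1 differed by 0.25 ± 0.14 (SE) and the phosphoglycerate mutase Pgam1 by -0.23 ± 0.14. The enolase Eno3, the muscle-type form, differed by -0.10 ± 0.16. Eno2, the neuronal enolase, Pgam2, the muscle-type mutase, and Hk3 had values of 5.23 to 6.19 and means below the median of all genes tested; whether they were above background was not tested. Hk1, Pgk1, Pgam1, Pkm and Ldhb had several probe sets, none of which passed.

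The lactate dehydrogenases interconvert pyruvate and lactate. Ldha stood at 12.35, 12.28 and 12.34 in wild type and at 12.18, 12.14 and 12.19 in ISR2. Its groups did not overlap, yet the difference of -0.15 ± 0.11 (SE; adjusted p = 0.653) was small. Ldhb stood at 6.47, 7.61 and 6.26 in wild type and at 6.29, 7.22 and 6.14 in ISR2. Here replicate 2 was the high array in both groups, as it was for the smooth muscle markers; the part of smooth muscle in this was not tested. The difference of -0.23 ± 0.38 (SE; 95% interval -1.08 to 0.62) had the widest interval of the glycolytic enzymes measured. At an unadjusted p under 0.05, neither dehydrogenase passed.

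**Figure D3:**
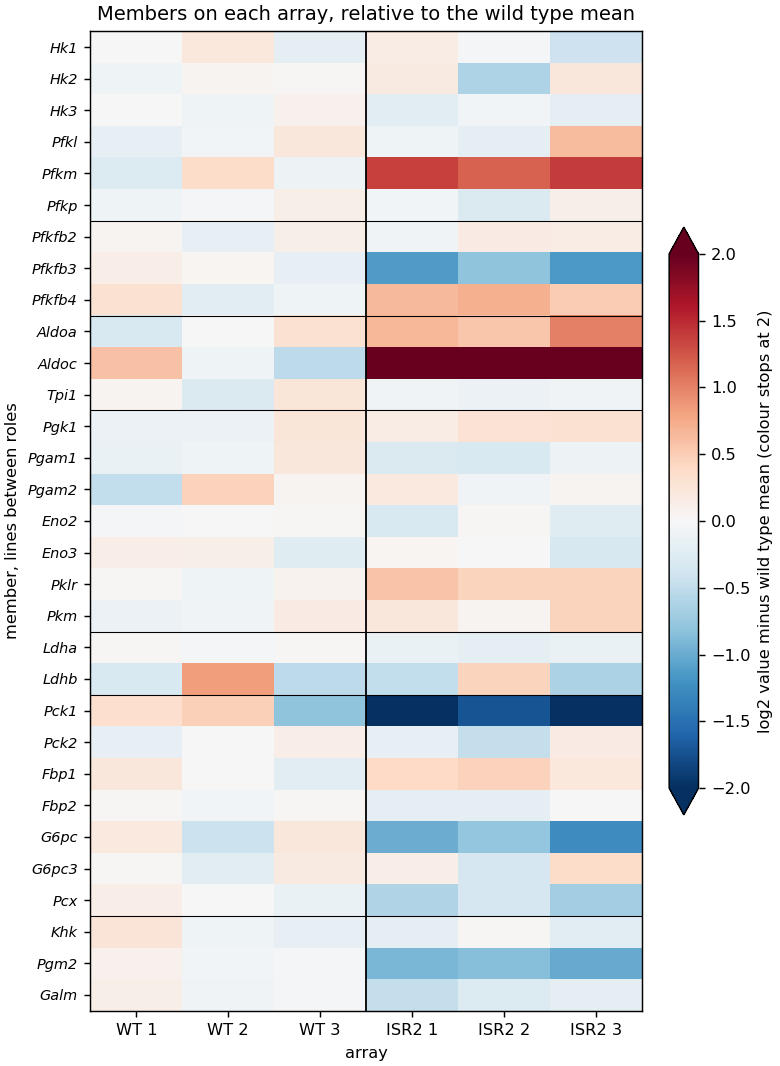
Each of the 31 enzymes (rows, by role) on each of the 6 arrays (columns), as the log2 value minus the wild type mean; the colour scale stops at 2 in either direction. Aldoc, Pfkm and Pgm2 differ in colour from wild type on all 3 ISR2 arrays, while Ldhb is high in replicate 2 of both groups (7.61 and 7.22).

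Gluconeogenesis held 2 falls among 7 measured enzymes. Pck1 encodes the cytosolic phosphoenolpyruvate carboxykinase, which turns oxaloacetate into phosphoenolpyruvate. It stood at 10.59, 10.74 and 9.45 in wild type and at 6.99, 8.53 and 7.15 in ISR2. Wild type replicate 3 was low and ISR2 replicate 2 high within their groups, and a gap still separated them. The change was -2.70 ± 0.44 (SE), 6.51-fold lower (adjusted p = 0.00997). The call was lost without wild type replicate 1 (adjusted p = 0.0619), without ISR2 replicate 1 (0.0601) and with all rows of the table tested (0.0555), while the change stayed between -3.19 and -2.42 without any 1 array. It passed without both replicate 2 arrays (-2.95, adjusted p = 0.0032). With wild type replicate 3 and ISR2 replicate 2 dropped, the change was -3.60 (adjusted p = 1.26e-05). Those are the arrays of each group nearest to the other group, so dropping them had to widen the gap and lends no support. Pck2, the mitochondrial form of the enzyme, differed by -0.15 ± 0.17 (SE; 95% interval -0.55 to 0.24).

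G6pc encodes the catalytic subunit of glucose 6-phosphatase, which releases free glucose at the end of gluconeogenesis. It stood at 9.13, 8.51 and 9.17 in wild type and at 7.94, 8.16 and 7.68 in ISR2. The nearest arrays of the groups were both replicate 2. The change was -1.01 ± 0.20 (SE), 2.02-fold lower (adjusted p = 0.0325). This was the least stable of the 6 calls: it did not survive the removal of wild type replicate 1 (adjusted p = 0.157) or 3 (0.1), nor that of ISR2 replicate 1 (0.135) or 3 (0.111), and it was lost with all rows tested (0.0997). Without both replicate 2 arrays, those nearest arrays, the change was -1.34 (adjusted p = 0.00504), a widening that the choice of arrays makes certain. G6pc3, the form found in most tissues, differed by 0.05 ± 0.19 (SE).

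The promoters of these genes are shown because they are the pair of gluconeogenic enzymes that fell. The string TTACGTNA was searched on both strands; it is the cAMP response element of the Pck1 promoter with 1 position left free, and was chosen after the sequences had been read. It stood in 0.898% of all windows. Among the 44 windows of these enzymes only those of Pck1 and G6pc held it, starting 93 and 162 bases before the start site. The free position is the letter at which these matches differ, so a match in both genes was fixed by the choice of string. The windows lie at chr2:173152823-173153122 and chr11:101367466-101367765 on GRCm38.p6, both on the + strand, with the match in capitals.
Pck1: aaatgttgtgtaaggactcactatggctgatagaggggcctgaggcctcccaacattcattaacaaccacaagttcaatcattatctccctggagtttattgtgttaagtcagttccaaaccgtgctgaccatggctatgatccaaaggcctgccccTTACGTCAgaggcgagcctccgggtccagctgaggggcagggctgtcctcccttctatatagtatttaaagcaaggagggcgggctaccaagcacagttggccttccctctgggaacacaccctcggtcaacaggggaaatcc
G6pc: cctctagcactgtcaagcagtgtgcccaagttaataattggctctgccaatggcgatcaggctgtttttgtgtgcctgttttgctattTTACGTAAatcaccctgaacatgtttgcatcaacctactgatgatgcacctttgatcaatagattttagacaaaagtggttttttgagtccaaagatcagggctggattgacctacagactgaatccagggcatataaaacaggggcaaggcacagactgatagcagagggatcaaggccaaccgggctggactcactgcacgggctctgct

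Pcx, the pyruvate carboxylase that opens gluconeogenesis in the mitochondrion, stood at 8.40, 8.28 and 8.14 in wild type and at 7.67, 7.94 and 7.58 in ISR2. Its groups did not overlap, and the difference of -0.54 ± 0.14 (SE; 95% interval -0.86 to -0.22) did not pass (adjusted p = 0.0991). It passed without ISR2 replicate 2 and with array weights (adjusted p = 0.0121). Of the fructose bisphosphatases, Fbp1 differed by 0.36 ± 0.15 (SE; adjusted p = 0.352) and Fbp2 by -0.12 ± 0.12, with overlapping groups in both. The 5 gluconeogenic enzymes that did not pass thus lay between -0.54 and 0.36.

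Some position and cell type markers moved beside these falls, where 1.23% of all genes fell. In the list of proximal position, 2 of 6 markers fell, Ada and Hsd17b6, and the median change of the list was -0.24. The list's mean log2 value was 10.12 to 10.33 in wild type and 9.16 to 9.64 in ISR2, and most of that gap came from Ada, the adenosine deaminase gene, which changed by -3.47 and stood at 8.42, 10.32 and 6.92 on the ISR2 arrays. Without Ada the mean was 9.74 to 9.90 in wild type and 9.45 to 9.61 in ISR2. The other 4 proximal markers, Fabp1, Cybrd1, Gata4 and Onecut2, did not pass and overlapped between groups.

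Among enterocyte and villus markers 2 of 8 fell, Alpi and Treh, with a median change of -0.41 and a list mean of 12.72 to 12.77 in wild type and 12.22 to 12.49 in ISR2. In that list Sis (0.14) and Fabp2 (-0.03) did not pass and overlapped between groups. Vil1 (-0.34), Lct (-0.48), Apoa4 (-0.49) and Anpep (-0.18) did not pass either. Their ISR2 arrays all lay below wild type, a separation that in either direction held for 19.8% of all genes. The T cell and intraepithelial lymphocyte list held 5 falls among 7, with means of 8.05 to 8.66 and 6.90 to 7.60. No marker fell in the B and plasma cell, myeloid, stem and cycling, goblet, Paneth and enteroendocrine lists, and the myeloid marker Cd14 rose by 1.16. Replicate 2 was the highest ISR2 array for all 4 enzymes that fell. The part of these markers in the falls was not tested, and in scrapings of mixed cells fewer cells of a type and less RNA per cell cannot be told apart. None of the 4 liver markers passed. Alb, Ttr and Tat lay between 4.55 and 6.11 on the 6 arrays, and Cps1, which enterocytes also express, between 10.45 and 11.59.

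**Figure D4:**
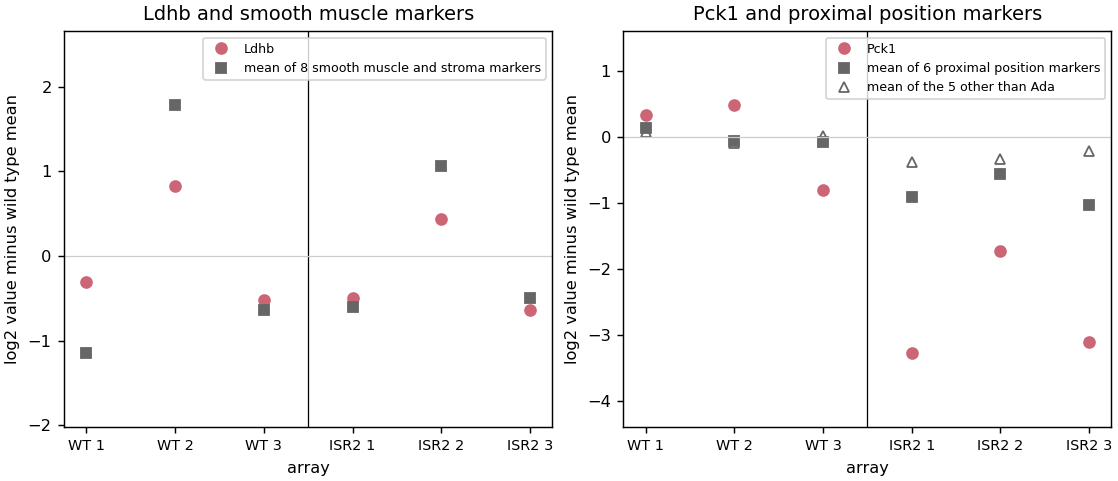
Log2 value minus the wild type mean on each array, for Ldhb with the mean of 8 smooth muscle and stroma markers (left) and for Pck1 with the mean of 6 proximal position markers (right). Ldhb and the muscle markers are both highest in the replicate 2 arrays; Pck1 and the proximal mean are both lower in ISR2; open triangles give the mean without Ada, which differs less between groups (9.74 to 9.90 against 9.45 to 9.61).

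In the group listed for fructose, galactose and glycogen entry, 1 of 3 measured enzymes fell. That enzyme, Pgm2, was listed here as a phosphoglucomutase, but the gene of that symbol is known to act mainly on pentose phosphates. Which gene the array row measures was not checked, so whether its fall is one of sugar entry is not settled here. Pgm2 stood at 11.04, 10.91 and 10.93 in wild type and at 10.05, 10.11 and 9.95 in ISR2. Both groups were tight and far apart, and the change was -0.92 ± 0.12 (SE), 1.90-fold lower (adjusted p = 0.00283). It was -0.96 to -0.88 without any 1 array, with adjusted p up to 0.0223.

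Khk, ketohexokinase, which starts fructose breakdown, differed by -0.14 ± 0.15 (SE; 95% interval -0.48 to 0.20), with overlapping groups. Galm, the mutarotase that readies galactose and glucose for their kinases, stood at 10.14, 9.95 and 9.99 in wild type and at 9.54, 9.75 and 9.83 in ISR2. These values did not overlap, but the difference of -0.32 ± 0.13 (SE) did not pass (adjusted p = 0.342).

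Other genes of hexose and pyruvate metabolism, together with transcriptional and other regulators, were taken from a list of 57 neighbours in the pathway, of which 49 were measured. In limma 6 of them rose, 12.2% against 1.79% of all genes, and 0 fell. Of these 6, 2 came from the 9 measured regulators, namely Hif1a and Srebf1. Without both replicate 2 arrays 5 rose and 1 fell, beside 277 and 159 of all 19938 genes. With wild type replicate 3 and ISR2 replicate 2 dropped 6 rose and 2 fell, beside 472 and 303 of all genes. At an unadjusted p under 0.05, 10 of the 49 were higher and 5 lower, beside 4.73% and 8.40% of all genes. Slc37a4, the transporter that carries glucose 6-phosphate to G6pc in the endoplasmic reticulum, stood at 9.52, 9.39 and 9.49 in wild type and at 10.27, 10.37 and 10.28 in ISR2. It rose by 0.84 ± 0.12 (SE; adjusted p = 0.00431) while G6pc fell.

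In the glycogen branch, 2 of 7 measured genes rose. Pgm1 is the symbol of the main phosphoglucomutase, which links glucose 6-phosphate with glycogen, but which gene its array row measures was not checked. Pgm1 stood at 8.85, 8.75 and 9.06 in wild type and at 9.71, 9.77 and 10.08 in ISR2. Its change of 0.96 ± 0.15 (SE; adjusted p = 0.00762) was opposite to that of Pgm2. Gbe1, the glycogen branching enzyme, rose by 0.80 ± 0.15 (SE; adjusted p = 0.0239); it no longer passed when any wild type array or replicate 3 of ISR2 was dropped (adjusted p up to 0.0849). Dropping both replicate 2 arrays (0.0908) or the pair of wild type replicate 3 and ISR2 replicate 2 (0.0729) had the same effect, as did testing all rows (0.0783).

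The remaining rises were those of Me1, the malic enzyme that turns malate into pyruvate (3.22 ± 0.14, SE), of Hif1a, the oxygen-sensitive factor that drives many glycolytic genes (0.81 ± 0.12; adjusted p = 0.00528), and of Srebf1, the factor of fatty acid synthesis (1.67 ± 0.15). Pdk4, a kinase that shuts pyruvate dehydrogenase, stood at 8.47, 8.64 and 8.11 in wild type and at 6.29, 7.83 and 7.14 in ISR2. The difference of -1.32 ± 0.33 (SE) did not pass (adjusted p = 0.0853), and ISR2 replicate 2 was again the ISR2 array nearest to wild type. Pdk4 passed as a fall when both replicate 2 arrays were dropped. With wild type replicate 3 and ISR2 replicate 2 dropped, Pdk4 passed along with Ppargc1a, a coactivator of gluconeogenic genes. Ppargc1a differed by -0.55 ± 0.19 (SE, adjusted p = 0.23) over all arrays. Wild type replicate 3 was the lowest wild type array for both genes, so dropping it widens their difference.

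The sugar carriers of the brush border and basolateral membrane did not pass. Slc5a1, the sodium-glucose carrier, differed by -0.03 ± 0.13 (SE; 95% interval -0.31 to 0.26), Slc2a5, the fructose carrier, by 0.23 ± 0.16 and Slc2a2, the basolateral carrier, by -0.29 ± 0.14. The Slc2a2 groups did not overlap, with ISR2 lower (95% interval -0.61 to 0.02). Mlxipl, the sugar-sensing factor ChREBP, differed by -0.11 ± 0.13. In fructose breakdown Tkfc, the triokinase that follows aldolase, differed by 0.60 ± 0.15 (SE; adjusted p = 0.0926) with no overlap between groups.

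**Figure D5:**
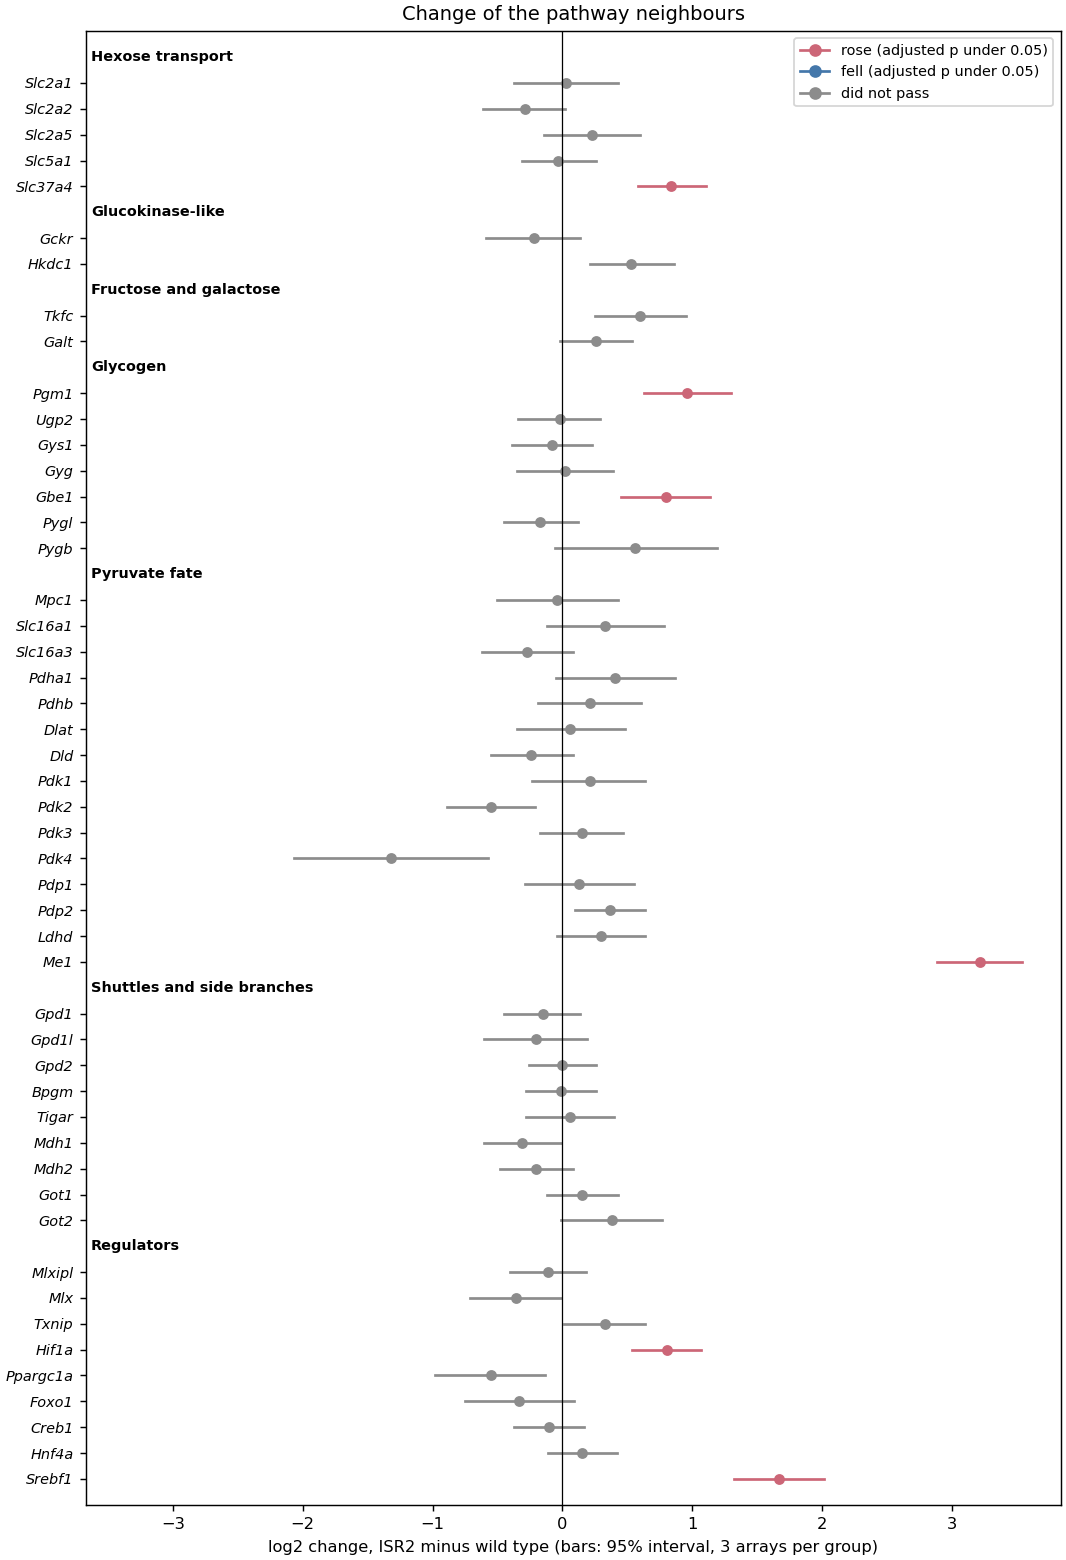
Log2 change of the 49 measured neighbours in the pathway, ISR2 minus wild type, with points for the estimate and bars for its 95% interval (3 arrays per group). Me1 at 3.22 and Srebf1 at 1.67 lie highest, and no neighbour passed on the lower side, where Pdk4 lies farthest from 0 at -1.32.

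The changes of relatives can be set side by side on each array. For 8 pairs, each holding a gene that passed and chosen with its values known, the log2 difference between both genes was taken on each array. The ISR2 and wild type arrays did not overlap in it for any of the 8, which the choice of pairs favours, so the shifts are given as descriptions with no test. The difference shifted by 2.39 for Aldoc over Aldoa, by 1.20 for Pfkm over Pfkl and by 1.39 for Pfkm over Pfkp. It shifted by 1.65 for Pfkfb4 over Pfkfb3, by -2.55 for Pck1 over Pck2 and by -1.06 for G6pc over G6pc3. For Slc37a4 over G6pc the shift was 1.85, and for Pgm1 over Pgm2 it was 1.89.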

How the data were processed

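Total RNA of 6 jejunal scrapings was labelled with biotin by the whole-transcript protocol of Affymetrix, per the labels' protocols. The authors deposited RMA values, as the submitters' processing notes say, on a log2 scale inferred from their range; no version or filter is stated in the sources used here. RMA removes changes shared by most genes and compresses those of dim genes. No detection call was used, and the number of arrays limits the precision.

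Groups came from sample titles. Of 35556 rows, 21789 had 1 gene symbol, 1621 several and 12146 none; the rows with 1 symbol gave 19938 genes. No intensity filter was applied. Genes were tested with limma 3.58.1 (lmFit, eBayes; R 4.3.3), ISR2 against wild type without covariates, two-sided, with Benjamini-Hochberg adjustment over all genes. Dak was matched as Tkfc through RefSeq synonyms. Steps were tested on simulated data. Figures used matplotlib 3.10.9.

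The members and lists were chosen with earlier results of these data known. Every member was to be accounted for, with values on each array for those past the threshold and for the smallest p in each role; pathway neighbours past the threshold were to be named. Array values of Aldoa, Pfkfb4, Pcx, Galm, Ldhb and Pdk4, and the neighbours that did not pass, were added after their values were seen. Alternatives were a variance trend, robust variances, weighted arrays, centring on medians, quantile normalization, leaving out dim genes, probe set means, all rows, a replicate block, a looser threshold and each array left out. Leaving out both replicate 2 arrays, or wild type replicate 3 with ISR2 replicate 2, was added after seeing the data, as was the proximal marker mean without Ada.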

Additional observations from a re-analysis of the deposited data

How the results depend on the processing

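The 6 enzymes that passed were recomputed under 18 alternatives, 108 values in all. Of these, 100 kept their side of the threshold, 8 lost it (3 for Pck1, 5 for G6pc) and 0 changed sign. The looser threshold could lose no call. Probe set means left the log2 values of these 6 unchanged, as each had 1 probe set. Both settings thus add little to the count that held. With array weights 10 enzymes passed, and at an adjusted p of 0.10 also 10, with 837 of all genes; Aldoa, Pfkfb4, Pklr and Pcx joined in each case. With array weights 1268 genes of the whole table and 11 neighbours passed, 8 of these higher and 3 lower. Without any 1 array, 4 to 7 enzymes and 335 to 589 of all genes passed, beside 602. The lowest of these counts of all genes were 335 without ISR2 replicate 1, 345 without wild type replicate 1 and 388 without wild type replicate 2; the cause was not tested. The same replicate numbers stand in both groups. Deviations of same-numbered arrays correlated at -0.02, 0.32 and 0.54 across genes, and 4 of 6 arrays correlated best with their own number. These values do not settle whether the numbers pair the samples. The labels state no pairing, and the main fit used none. With the replicate block 7 enzymes, 9 neighbours and 778 of all genes passed; the added enzyme was Aldoa. No background signal was used, so the data do not tell whether the dimmest enzymes, Hk3, Pgam2 and Eno2, were detected.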
